A study of Mus musculus with 11 samples.

Results

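Transcripts of the cytosolic ribosomal proteins, the proteins of the ribosomes that translate nuclear-encoded mRNA, were measured in mouse inguinal white adipose tissue. Members were all protein-coding genes whose symbol starts with Rpl, Rps or Rplp followed by a number. Left out were the kinases with Rps6k symbols, the Rps19 binding protein and predicted or pseudogene symbols. This rule gave 84 genes of 52282 measured, 32 of the small subunit, 49 of the large subunit and the 3 stalk proteins, and 83 passed the filter on low counts, the exception being Rpl10l. The 11 bulk RNA-seq libraries came from C57BL6/J mice aged 16 weeks that carried floxed Raptor (gene Rptor) alleles and ate a high-fat diet for their last 8 weeks, and the study asked how PPARγ and mTORC1 act together on this tissue. Raptor, a subunit that mTORC1 needs, was deleted with a Cre recombinase driven by the adiponectin promoter (KO), which acts in adipocytes and leaves Raptor intact in the other cells of the tissue. There were 3 KO libraries with rosiglitazone, a PPARγ agonist given at 30 mg per kg per day in the diet, 2 KO libraries on the diet alone, 3 libraries of floxed littermate controls (WT) with rosiglitazone and 3 WT libraries on the diet alone. The titles of all 6 WT libraries name the opposite treatment to their treatment characteristic; the WT groups follow the characteristic, and every comparison that uses a WT group depends on this choice. Whether the libraries of a group come from separate animals is not stated, so the p-values describe only how far these libraries scatter, which may be technical variation.

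Each ribosome holds 1 copy of nearly every ribosomal protein on a scaffold of ribosomal RNA, so cells need its protein subunits in matching amounts. These mRNAs begin with a C followed by a run of pyrimidines, the 5′ terminal oligopyrimidine (TOP) element, through which mTORC1 controls their translation by way of the RNA-binding protein LARP1. RNA abundance, measured here, is not translation. Lymphocytes are rich in ribosomal protein mRNA, and inguinal fat contains a lymph node. In a bulk library more cells of one type and more RNA per cell cannot be told apart.

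The bases at the transcription start are shown because the TOP element begins there. RefSeq start-site windows (GRCm38.p6, 250 bases before to 50 bases after each listed start) were found for 64 member genes, with 76 windows among them. The 6 letters CTTTCC, a C followed by pyrimidines, stood on the gene's strand within 50 bases of the start in 24 of the 76 windows (31.6%), against 4.69% of all 32851 windows. On the opposite strand the same stretch held CTTTCC in 2.63% of member windows and 4.47% of all windows. Windows of the same gene can overlap, so a single CTTTCC on the gene's strand was counted more than once for Rpl35a and Rps19. The letters CGGAAG, the core that ETS-family transcription factors bind, stood on either strand of the whole window in 59.2% of member windows and 16.9% of all windows. Searched on both strands, the 2 motifs can share at most 1 end base. The 30 bases around the start are shown for the 9 members whose CTTTCC begins at most 5 bases from it, and for Rps26 and Rpl39, which have none within 50 bases and head the results below; capitals mark CTTTCC, and the 16th base is the listed start.
Rps27, chr3:90213634-90213663, minus strand: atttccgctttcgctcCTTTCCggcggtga
Rps27rt, chr9:114982725-114982754, minus strand: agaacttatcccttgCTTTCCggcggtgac
Rps10, chr17:27635230-27635259, minus strand: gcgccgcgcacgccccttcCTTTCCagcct
Rpl15, chr14:18270972-18271001, minus strand: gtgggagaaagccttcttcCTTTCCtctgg
Rpl18, chr7:45718056-45718085, plus strand: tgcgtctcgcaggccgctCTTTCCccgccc
Rpl28, chr7:4792950-4792979, plus strand: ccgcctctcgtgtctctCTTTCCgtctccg
Rpl35, chr2:39005117-39005146, minus strand: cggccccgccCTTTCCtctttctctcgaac
Rpl35a, chr16:33056467-33056496, plus strand: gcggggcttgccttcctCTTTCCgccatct
Rpl38, chr11:114668565-114668594, plus strand: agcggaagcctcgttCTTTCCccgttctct
Rps26, chr10:128626492-128626521, minus strand: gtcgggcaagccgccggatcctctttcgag
Rpl39, chrX:37085208-37085237, minus strand: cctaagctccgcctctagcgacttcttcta
A match is a description of letters and not a mapped start or a binding site, and a window without one says only that these letters are not in it.

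Libraries held 13021072 to 17148735 estimated reads in KO with rosiglitazone, 18886974 and 20134890 in KO on diet, 18418103 to 40885654 in WT with rosiglitazone and 16066725 to 27133086 in WT on diet. The long non-coding RNA gene Gm26917 took 10.5% to 18.6% of reads in KO with rosiglitazone, 4.06% and 12.7% in KO on diet, 6.23% to 9.09% in WT with rosiglitazone and 3.68% to 8.42% in WT on diet. With protein-coding genes only, which leaves out Gm26917 and every other gene of another type, the count of 41 members given below was 52. That fit called 23.6% of its 16916 genes in either direction, against 15.0% of 26960 genes in the main fit. Rptor measured 88.3, 82.4 and 91.7 CPM (read counts scaled to a library of 1000000 reads, after TMM scaling) in the 3 KO libraries with rosiglitazone and 119, 126 and 110.5 CPM in the 3 WT libraries with rosiglitazone, a log2 fold change of -0.44 ± 0.15 (SE) with an edgeR adjusted p of 0.0749. On diet alone it measured 56.5 and 69.6 CPM in KO and 92.0, 80.1 and 73.9 CPM in WT (edgeR, -0.38 ± 0.17, adjusted p = 0.467). Rptor was lower in every KO library than in every WT library of the same treatment, and neither difference passed the threshold.

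The summed ribosomal protein transcripts were higher in KO than in WT tissue with rosiglitazone. Their summed level was 10129, 7557 and 8040.5 CPM in KO with rosiglitazone, 6234 and 7778 CPM in KO on diet, 5529, 5008 and 5974 CPM in WT with rosiglitazone and 4966, 6239 and 5802 CPM in WT on diet. With rosiglitazone every KO library lay above every WT library, while on diet the KO value of 6234 lay below the WT value of 6239, and the KO libraries with and without rosiglitazone overlapped. Per transcript length, members made up 4.21% to 5.84% of the nuclear protein-coding TPM in KO with rosiglitazone and 3.35% and 5.19% in KO on diet. The share was 2.09% to 2.68% in WT with rosiglitazone and 2.13% to 3.65% in WT on diet. Of the unscaled TPM, 1 short gene, Gm24245, annotated as a microRNA, held 5.71% to 47.0% of a library, so TPM levels are given after rescaling the nuclear protein-coding genes of each library to a sum of 1000000 (coding TPM).

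**Figure D1:**
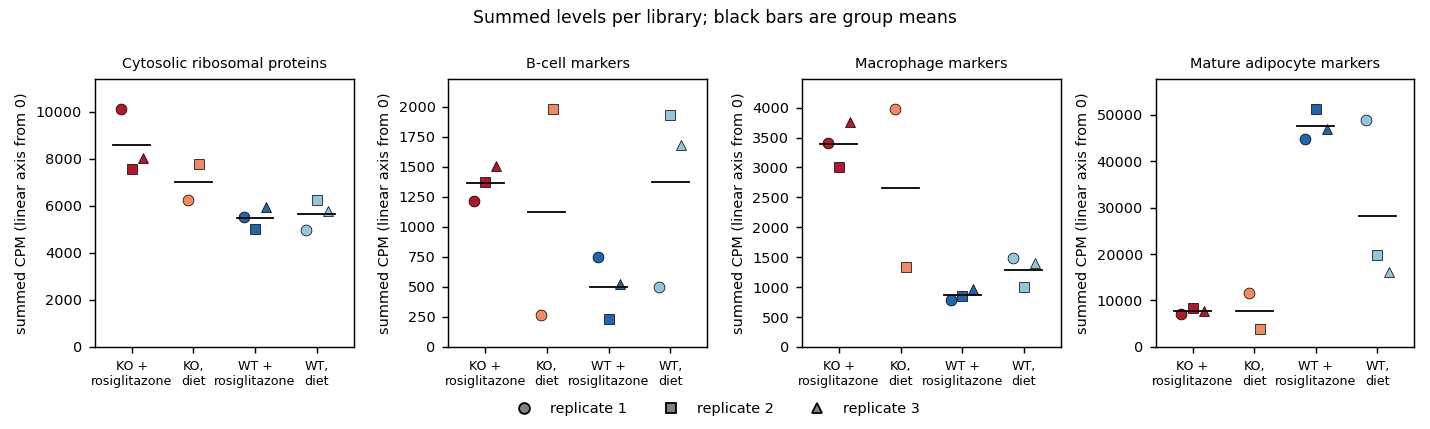
Summed CPM per library (points, shaped by replicate) for the 84 ribosomal protein genes and for marker lists of B cells, macrophages and mature adipocytes, with group means as black bars and each axis starting at 0. Ribosomal protein sums were 7557 to 10129 CPM in KO with rosiglitazone and 5008 to 5974 CPM in WT with rosiglitazone, and the 3 marker panels also separate these groups.

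Members differed in level by orders of magnitude, although nearly all of them occur once per ribosome. Among the highest means over the 11 libraries on the coding TPM scale were 1739 for the stalk protein Rplp1, and those of Rps14 (1580.2), the stalk base Rplp0 (1493) and Rps4x (1278). Ranges over the 11 libraries overlapped among these, Rplp1 at 994 to 2723 coding TPM and Rps4x at 603 to 2172. The lowest means were those of Rpl10l (0.0484), Rpl39l (5.80) and Rpl3l (15.6), paralogs with restricted expression, and then of Rpl27 (38.7) and Rps23 (40.6). Rpl27 and Rps23 are subunits of every ribosome. Of the reads assigned to each of them and its named pseudogenes, 66.2% and 92.0% went to the pseudogenes.

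With rosiglitazone, KO tissue had higher ribosomal protein transcripts than WT tissue across both subunits. In 3 KO against 3 WT libraries, 41 of 83 tested members rose and 0 fell (edgeR, adjusted p under 0.05 over all 26960 genes), where 5.47% of all tested genes were called higher and 15.0% were called in either direction. Among protein-coding genes whose log2 CPM averaged 4 or more, a class closer to the members in level, 7.84% were called higher. At an unadjusted p under 0.05 in edgeR, 61 members were higher and 0 lower, where 13.6% of all genes were higher at that level. DESeq2 called 53 higher and 0 lower, with 8.95% of all genes called higher, and limma-voom 56 and 0, with 15.2%. The median log2 fold change of the members was 0.67, against 0.053 for all tested genes, with quartiles of 0.46 and 0.89. Estimates were positive for 80 members and negative for 3. The KO and WT libraries did not overlap for 66 members that were higher and 1 that was lower, where 23.5% of all genes did not overlap and were higher and 24.7% did not overlap and were lower.

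**Figure D2:**
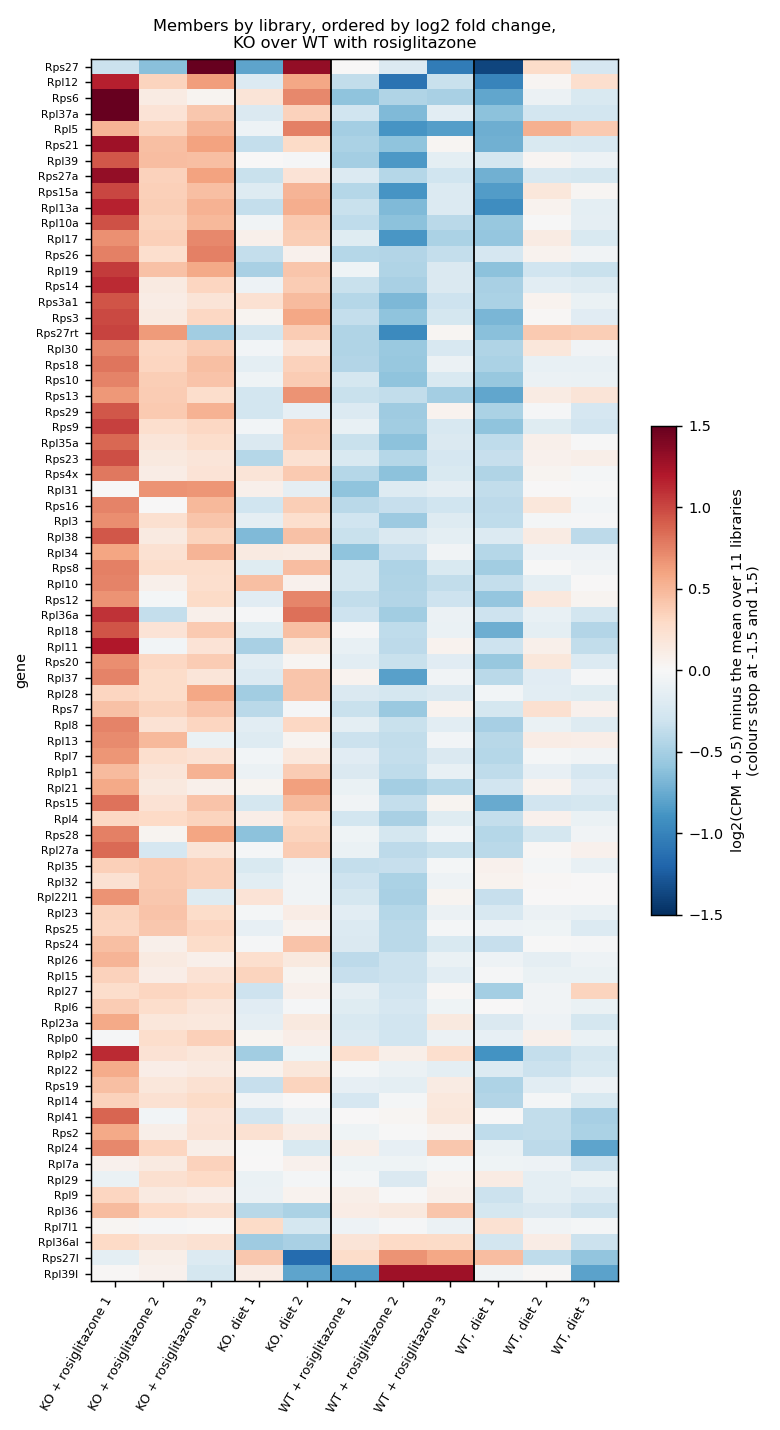
Level of 78 members in the 11 libraries as log2(CPM + 0.5) minus its mean over the libraries (colour), with genes ordered by the log2 fold change of KO over WT with rosiglitazone. Red cells fill most of the 3 KO columns with rosiglitazone, deepest in replicate 1, where the members summed to 10129 CPM, and the last rows, Rps27l and Rpl39l, run the other way.

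The change had the smallest p for members of different parts of the ribosome. Rps26 of the small subunit, which lies at the mRNA exit site (chromosome 10, 128624534 to 128626747, minus strand, GRCm38), measured 23.8, 16.6 and 23.8 CPM in KO with rosiglitazone and 10.2, 10.1 and 10.7 CPM in WT with rosiglitazone. The groups did not overlap, with more spread in KO than in WT, and the log2 fold change was 1.05 ± 0.19, adjusted p = 0.00726 in edgeR. Rpl39, a very small protein in the wall of the peptide exit tunnel (chromosome X, 37082520 to 37085402, minus strand), measured 34.3, 24.7 and 24.6 CPM in KO and 12.4, 9.55 and 16.1 CPM in WT (edgeR, 1.14 ± 0.21, adjusted p = 0.00870). Rpl10a, the protein of the mobile L1 stalk at the tRNA exit, measured 74.7, 48.3 and 54.0 CPM in KO and 29.3, 24.8 and 28.8 CPM in WT (edgeR, 1.10 ± 0.22, adjusted p = 0.0107). The fold differences of these 3 were 2.07-fold, 2.20-fold and 2.14-fold. Rpl17, which lines the exit tunnel, measured 55.1, 43.9 and 56.8 CPM in KO and 30.0, 18.4 and 24.5 CPM in WT (edgeR, 1.10 ± 0.23, adjusted p = 0.0137). Rpl30, at the face between the subunits, measured 76.7, 56.9 and 59.7 CPM in KO and 33.4, 30.9 and 38.7 CPM in WT (edgeR, 0.91 ± 0.20, adjusted p = 0.0148). Rpl35, near the tunnel exit where the signal recognition particle docks, measured 56.6, 57.6 and 56.4 CPM in KO and 34.1, 34.4 and 43.2 CPM in WT (edgeR, 0.61 ± 0.14, adjusted p = 0.0175). Groups did not overlap for any of these 6, and Rpl35 had the narrowest KO range.

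Among small-subunit genes 18 of 32 rose, with a median log2 fold change of 0.83. Rps27, a zinc-finger protein, had the highest estimate of all members at 2.14 ± 1.04, which did not pass (edgeR, adjusted p = 0.195) and was -0.13 without KO replicate 3. Rps6, the substrate of the S6 kinases downstream of mTORC1, measured 156, 57.2 and 53.8 CPM in KO and 34.2, 38.0 and 37.2 CPM in WT, so that 1 KO library was far above the other two (edgeR, 1.28 ± 0.39, adjusted p = 0.0510). Without that library the log2 fold change of Rps6 was 0.60. Rps19, the gene most often mutated in human Diamond-Blackfan anaemia, measured 168, 138 and 143 CPM in KO and 113, 111 and 133 CPM in WT (edgeR, 0.33 ± 0.20, adjusted p = 0.289); the groups did not overlap. Rps4x, among the most abundant members, measured 579.6, 361 and 385 CPM in KO and 247, 218 and 283 CPM in WT (edgeR, 0.83 ± 0.24, adjusted p = 0.0462).

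Among large-subunit genes 22 of 48 rose, with a median of 0.63. Rpl12, at the base of the stalk that recruits elongation factors, measured 34.0, 18.9 and 23.1 CPM in KO and 11.3, 6.63 and 11.7 CPM in WT (edgeR, 1.36 ± 0.38, adjusted p = 0.0404). Rpl37a, a zinc-binding protein, measured 111, 43.1 and 49.5 CPM in KO and 30.3, 23.5 and 33.5 CPM in WT (edgeR, 1.22 ± 0.34, adjusted p = 0.0391). Both had their highest value in KO replicate 1. Rpl5 and Rpl11 bind 5S ribosomal RNA together in a particle that can also hold back the p53 regulator MDM2. Rpl5 measured 45.9, 40.6 and 46.0 CPM in KO and 22.4, 17.1 and 17.9 CPM in WT (edgeR, 1.21 ± 0.32, adjusted p = 0.0337), and its groups were well separated. Rpl11 measured 69.8, 29.3 and 34.9 CPM in KO and 27.8, 22.9 and 31.3 CPM in WT, where the groups overlapped (edgeR, 0.71 ± 0.32, adjusted p = 0.163). At the low end, Rpl36 measured 46.3, 41.0 and 39.4 CPM in KO and 36.0, 36.6 and 44.4 CPM in WT (edgeR, 0.11 ± 0.13, adjusted p = 0.590), again with overlapping groups.

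The stalk proteins, which recruit and activate the translational GTPases, had 1 of 3 members higher. Rplp1 measured 282, 231 and 291 CPM in KO and 174, 155 and 189 CPM in WT (edgeR, 0.63 ± 0.19, adjusted p = 0.0487). Rplp0 measured 438, 529.6 and 566 CPM in KO and 384, 358 and 416 CPM in WT (edgeR, 0.41 ± 0.19, adjusted p = 0.166), without overlap. Rplp2 measured 208, 111 and 108 CPM in KO and 114, 102 and 114 CPM in WT, where 2 KO libraries lay within the WT range and 1 far above it (edgeR, 0.37 ± 0.28, adjusted p = 0.381).

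**Figure D3:**
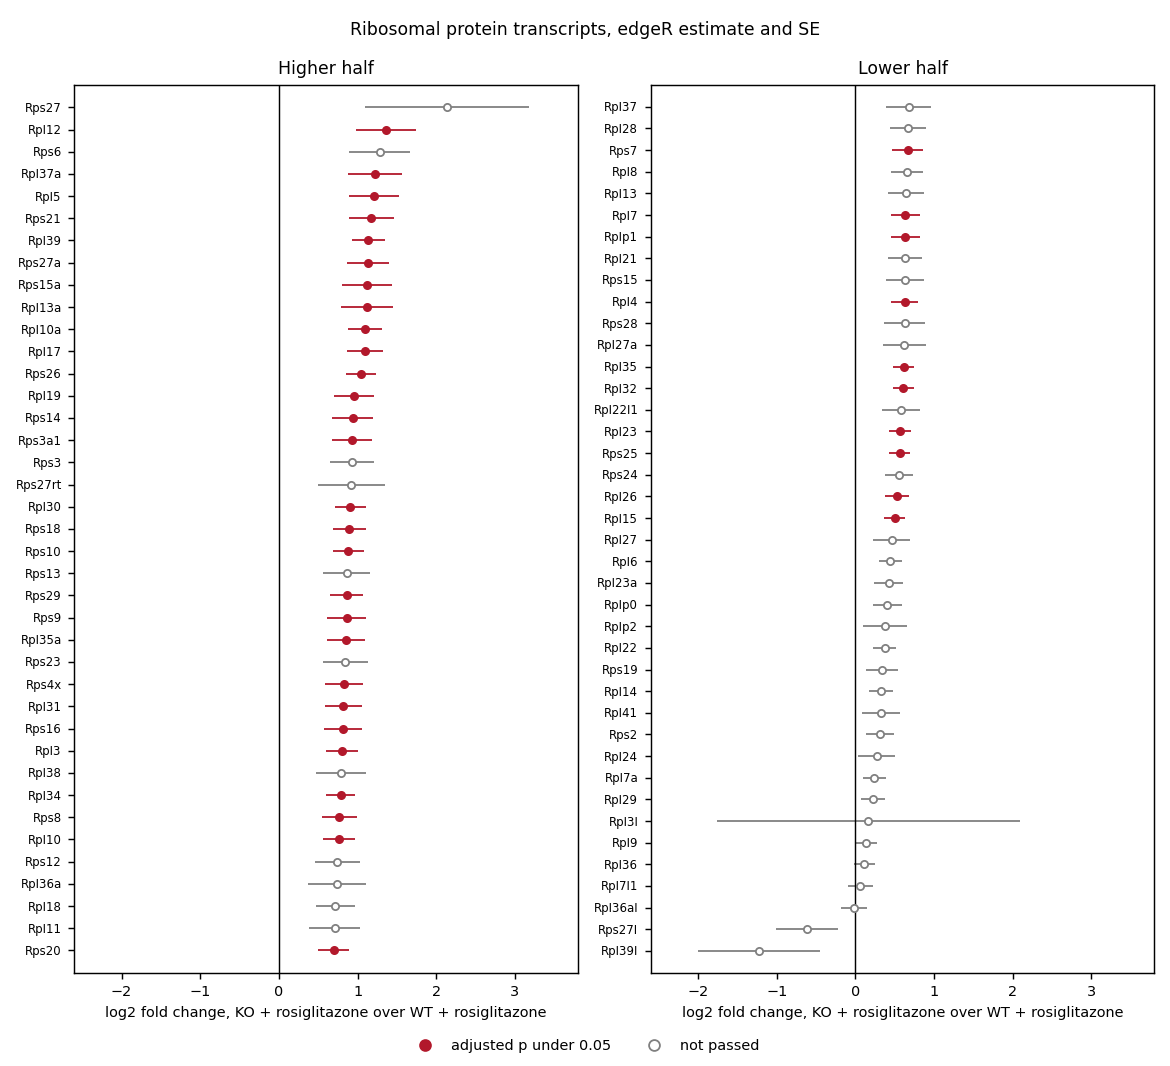
Log2 fold change of KO over WT with rosiglitazone for 79 of the tested members (edgeR estimate with SE as bars), ordered by estimate; filled red points passed the adjusted p threshold of 0.05. The 38 filled points all lie right of 0, from 0.50 for Rpl15 to 1.36 for Rpl12.

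The count of 41 depended on single libraries more than the direction did. Without KO with rosiglitazone replicate 1, 2 or 3 edgeR called 5, 32 or 5 members higher, which is 6.02%, 38.6% and 6.02% of 83. Of all genes those fits called 2.52%, 4.05% and 2.34% higher and 6.13%, 8.98% and 5.60% in either direction. Without WT with rosiglitazone replicate 1, 2 or 3 it called 4, 2 or 15 members higher, 4.82%, 2.41% and 18.1% of 83. Of all genes those fits called 2.71%, 1.98% and 2.87% higher and 7.86%, 5.60% and 8.34% in either direction. Without WT replicate 2 the members' share was thus near that of all genes called higher, and without KO replicate 1, KO replicate 3 or WT replicate 1 it was near or under that of all genes called in either direction. Leaving out libraries of groups outside the contrast also moved the count, in both directions. It was 24 and 25 without WT on diet replicates 2 and 3, where 4.53% and 4.98% of all genes were called higher. Without WT on diet replicate 1 it was 47, where 22.1% of all genes were called in either direction. The median log2 fold change stayed between 0.57 and 0.84 in the 11 such fits, and 0 members were called lower in any of them. Rps26 and Rpl39 were the members called in all 11 fits, and the only ones without WT replicate 2. Without KO replicate 1 the others were Rpl31, Rpl10a and Rpl32, without KO replicate 3 they were Rpl10a, Rpl30 and Rps27a, and without WT replicate 1 they were Rpl17 and Rpl10a. Rps26 ranged from 0.96 to 1.27 and Rpl39 from 0.96 to 1.34. With the WT libraries grouped by their titles, 2 members were called by edgeR, Rpl36 at 0.62, adjusted p = 0.0454 and Rps27a at 1.22, adjusted p = 0.0457, and the median was 0.58; Rps27a is also among the 41. The 2 are 2.41% of the members, where that fit called 0.990% of all genes higher and 2.31% in either direction. On the scale of log2(TPM + 1), where the median of all genes was -0.30, limma-trend called 0 members, against 15.1% of all genes in either direction, and the members' median was 0.10. On log2(coding TPM + 1), chosen after seeing the data, it called 44 higher, 37 of them among the 41, where 8.48% of all genes were called higher, and the median was 1.07 against 0.34 for all genes.

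Cell type markers moved with the same contrast, where 5.47% of all tested genes were called higher and 9.50% lower. Mature adipocyte markers summed to 7091 to 8402 CPM in KO with rosiglitazone and 44837 to 51229 CPM in WT with rosiglitazone, and 16 of 18 fell. Macrophage markers summed to 3016 to 3756 CPM in KO and 787 to 965 CPM in WT, and 11 of 16 rose. B-cell markers summed to 1214 to 1507 CPM in KO and 230.2 to 748 CPM in WT, with 0 of 17 called by edgeR and all 17 estimates positive. T and NK cell markers summed to 474 to 528 CPM in KO and 26.5 to 199.5 CPM in WT, with 0 of 19 called and 19 positive. Progenitor markers summed to 5001 to 9646 CPM in KO and 2085 to 3100.0 CPM in WT, and 2 of 11 rose. Endothelial markers summed to 604 to 636 CPM in KO and 891 to 1218 CPM in WT, and 3 of 12 fell. Skeletal muscle markers summed to 179 to 42579 CPM in KO and 259 to 20119 CPM in WT, with 0 of 18 called and 13 positive. Epithelial markers summed to 12.4 to 39.2 CPM in KO and 11.6 to 41.3 CPM in WT, with 0 of 8 called. No marker of any list was at 0 in all 11 libraries. The sums of the macrophage, B-cell, T and NK cell and progenitor lists were higher in every KO library than in every WT library, as that of the ribosomal proteins was, and those of the mature adipocyte and endothelial lists were lower. The part of these cells in the ribosomal protein difference was not tested, and the 2 covariate fits that follow cannot show it. With the B-cell sum as a covariate 25 members were called higher at a median of 0.50, all 25 among the 41, where 6.03% of all genes were called higher. With the mature adipocyte sum as a covariate the median was 0.065, 0 of the 41 were called and 1 other member was by edgeR, Rps27l at 1.62, adjusted p = 0.0122. That is 1.20% of the members, where this fit called 5.51% of all genes higher and 7.30% in either direction, so the members' share was under that of all genes. Neither sum overlaps between KO and WT with rosiglitazone, while both vary within the WT libraries on diet, which also enter these fits. Genotype and either sum therefore cannot be told apart within this contrast. A marker sum also does not separate a change in cells from a change in RNA per cell.

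Rosiglitazone within KO tissue left 0 of 83 members past the edgeR threshold, where 0.0148% of all genes were called. At an unadjusted p under 0.05 in edgeR, 16 members were higher and 0 lower, where 4.09% of all genes were higher. Limma-voom called 0 members and 0.00% of all genes, and DESeq2 called 4 members higher, namely Rpl36, Rpl36al, Rpl35 and Rpl6, where 0.943% of all genes were. The median log2 fold change was 0.37, against -0.0095 for all genes, with 79 positive estimates. Groups did not overlap for 28 members that were higher and 0 that were lower, where 10.5% and 10.7% of all genes did not overlap in those directions. Apart from Rpl3l and Rps27, which are given with the paralogs, the highest edgeR estimates belonged to Rps27a, made as a fusion with ubiquitin (0.86 ± 0.30, adjusted p = 0.465), Rplp2 (0.85 ± 0.32, adjusted p = 0.501) and Rps29 (0.84 ± 0.24, adjusted p = 0.348). Rps27a measured 85.2, 43.0 and 51.6 CPM in KO with rosiglitazone and 26.8 and 39.2 CPM in KO on diet, without overlap. Rpl36 measured 46.3, 41.0 and 39.4 CPM in KO with rosiglitazone and 24.7 and 23.8 CPM in KO on diet (edgeR, 0.80 ± 0.15, adjusted p = 0.166), and was singled out after its values were seen. At the other end stood Rpl21 (-0.076), Rpl36a (-0.066), Rpl7l1 (-0.035), Rps12 (-0.013) and Rpl15 (0.025). The pair of KO libraries on diet was uneven: replicate 2 had 7778 CPM of ribosomal proteins, 1982 CPM of B-cell markers, 852 CPM of T and NK cell markers and 3841 CPM of mature adipocyte markers, and replicate 1 had 6234, 269, 36.5 and 11647 CPM of these. Without replicate 1 or 2 of that group the members' median was 0.20 or 0.58, with 1 library left in the group.

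Rosiglitazone within WT tissue also left 0 of 83 members past the edgeR threshold, where 2.14% of all genes were called. The median was -0.11, against -0.046 for all genes, and 54 estimates were negative. At an unadjusted p under 0.05 in edgeR, 5 members were higher (Rpl36, Rpl36al, Rplp2, Rpl24 and Rps2) and 1 lower (Rpl5), where 9.93% of all genes were higher and 7.50% lower. DESeq2 called Rpl36 higher, and 5.50% of all genes. Limma-voom called Rpl36, Rps27l, Rps2 and Rpl24 higher and Rpl5, Rpl30 and Rps13 lower, where 16.9% of all genes were called higher and 10.5% lower. These 7 are 8.43% of the members, under the 27.4% of all genes called in either direction, and in edgeR and DESeq2 the members' counts were likewise under the share of all genes. Groups did not overlap for 8 members that were higher and 4 that were lower, where 13.4% and 10.4% of all genes did not overlap in those directions. Rpl5 measured 22.4, 17.1 and 17.9 CPM in WT with rosiglitazone and 19.1, 46.8 and 42.3 CPM in WT on diet (edgeR, -0.92 ± 0.32, adjusted p = 0.180), so that replicate 1 on diet lay with the rosiglitazone libraries. Without that library the edgeR log2 fold change of Rpl5 was -1.22, adjusted p = 0.0153, in a fit that called 2.70% of all genes lower. The same library had 48799 CPM of mature adipocyte markers and 496 CPM of B-cell markers, where the other WT libraries on diet had 16138 and 19786 CPM of the first and 1682 and 1933 CPM of the second. Rplp2 measured 114, 102 and 114 CPM in WT with rosiglitazone and 51.3, 74.5 and 79.4 CPM in WT on diet (edgeR, 0.68 ± 0.28, adjusted p = 0.240). Rpl24, at the face between the subunits, stood at 0.56 ± 0.24, adjusted p = 0.266 in edgeR, Rps27l at 0.63 ± 0.39, and Rpl36 measured 36.0, 36.6 and 44.4 CPM in WT with rosiglitazone and 27.6, 28.6 and 26.3 CPM in WT on diet (edgeR, 0.50 ± 0.13, adjusted p = 0.0879). Rpl36, Rpl36al, Rps2, Rpl30 and Rps13 are named here because their calls were seen. The low end of the estimates held Rpl5, Rps27rt (-0.53), Rpl12 (-0.44), Rpl39 (-0.39) and Rps26 (-0.34).

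Between KO and WT on diet alone, 0 of 83 members passed by edgeR, where 0.137% of all genes were called. The median was 0.23, against 0.017 for all genes, with 66 positive estimates. At an unadjusted p under 0.05 in edgeR, Rps2 and Rpl22 were higher and 0 members lower, where 4.57% of all genes were higher. DESeq2 called Rps2 higher, and 0.886% of all genes, and limma-voom called 0 members and 0.0111% of all genes. The 2 members are a smaller share of 83 than the genes higher before adjustment are of all genes, and the 1 member is near the DESeq2 share. Groups did not overlap for 21 members that were higher and 4 that were lower, where 10.5% and 10.3% of all genes did not overlap in those directions. Rps2, at the mRNA entry site, measured 362 and 337 CPM in KO and 238, 241 and 223 CPM in WT (edgeR, 0.58 ± 0.20, adjusted p = 0.330), without overlap. Among the highest edgeR estimates were those of Rps27 (0.99 ± 1.11, adjusted p = 0.834), Rps6 (0.82 ± 0.42, adjusted p = 0.549), Rpl36a (0.73) and Rpl18 (0.59). Rps6 measured 59.8 and 86.5 CPM in KO on diet and 30.3, 49.2 and 44.5 CPM in WT on diet. The lowest were those of Rpl36al (-0.39), Rps7 (-0.22), Rpl36 (-0.18) and Rpl35 (-0.13), next to Rpl3l.

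The interaction, the difference between the rosiglitazone effect in KO and that in WT, passed for 0 of 83 members by edgeR, where 0.104% of all genes were called. At an unadjusted p under 0.05 in edgeR, 9 members were higher in the interaction and 0 lower, where 4.90% of all genes were higher. Limma-voom called 0 members and 0.152% of all genes, and DESeq2 called Rpl32, Rpl35, Rps26 and Rpl6 higher, where 1.36% of all genes were. The median was 0.41, against 0.00044 for all genes, with 77 positive estimates. Apart from Rpl3l and Rps27, the highest edgeR interaction estimates were those of Rps26 (1.10 ± 0.28, adjusted p = 0.217), Rpl39 (1.04 ± 0.32, adjusted p = 0.304) and Rpl5 (0.98 ± 0.48, adjusted p = 0.515). The lowest were those of Rps27l (-0.54), Rps2 (-0.26), Rpl9 (-0.074), Rpl24 (-0.029) and Rpl22 (-0.00010). The difference between KO and WT with rosiglitazone is thus not shown to differ from that on diet. The 5 comparisons share libraries and are not independent of each other.

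The lists of other genes of the ribosome and of mTORC1 and translation held calls in both directions. In KO against WT with rosiglitazone, 5.47% of all genes were called higher and 9.50% lower. Of 4 ribosomal proteins whose symbols fall outside the rule, 1 was higher in KO than WT with rosiglitazone. It was Rack1, the signalling scaffold on the small subunit, at 448 CPM on average in KO and 274 CPM in WT (edgeR, 0.71 ± 0.19, adjusted p = 0.0330). Of 24 other TOP mRNAs, chiefly translation factors, 4 rose and 1 fell (median 0.24). Those with the smallest p were the RNA-binding protein Hnrnpa1 (0.93 ± 0.18), the growth-related protein Tpt1 (0.72 ± 0.16), the nucleolar chaperone Npm1 (0.88 ± 0.23) and, lower, the initiation factor subunit Eif3l (-1.35 ± 0.33). Of 55 ribosome biogenesis factors 1 rose, the rRNA methyltransferase Fbl (0.87 ± 0.22), and 4 fell (median 0.11), among them the H/ACA particle protein Nop10 (-1.02 ± 0.21). Both counts are smaller shares of the 55 than those of all genes called in these directions. RNA polymerase I machinery had 0 of 15 called (median 0.12), with Taf1c at 0.82 ± 0.26, adjusted p = 0.0609 and the initiation factor Rrn3 at -0.82 ± 0.25, adjusted p = 0.0564 nearest the edgeR threshold. A list for mTORC1 and translation also held mTORC1 subunits and the Rps6ka kinases, which are not the S6 kinases downstream of mTORC1. Of its 19 genes 2 rose and 3 fell (median -0.37). Those that fell were the translational repressor Eif4ebp1 (-1.49 ± 0.34), the elongation factor kinase Eef2k (-1.13 ± 0.27) and the initiation scaffold Eif4g1 (-1.21 ± 0.32), and the kinase Rps6ka1 rose (1.40 ± 0.33).

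Mitochondrial ribosomal proteins, which build a separate ribosome for the transcripts of the mitochondrial genome, were lower in the same libraries. Of 78 such genes 0 were higher and 25 lower in KO than WT with rosiglitazone, with a median of -0.55 and 4 positive estimates, where 9.50% of all genes were called lower. With rosiglitazone in WT tissue 7 of the 78 were higher and 0 lower (median 0.63), where 1.55% of all genes were called higher, and with rosiglitazone in KO tissue and between genotypes on diet 0 were called (medians 0.15 and -0.082). In the same comparisons the cytosolic members had medians of 0.67, -0.11, 0.37 and 0.23.

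Some members are paralogs of a constitutive subunit. Rpl3l, the striated-muscle paralog of Rpl3, had 1, 337 and 1 reads in KO with rosiglitazone, 6 and 0 in KO on diet, 5, 291 and 213 in WT with rosiglitazone and 7, 230 and 14 in WT on diet. The 4 libraries with over 200 reads were those with 10816 to 42579 CPM of skeletal muscle markers, which summed to 179 to 1102 CPM in the other 7. Rpl3 itself measured 379, 278 and 312 CPM in KO with rosiglitazone and 191, 160.1 and 205 CPM in WT with rosiglitazone (edgeR, 0.80 ± 0.21, adjusted p = 0.0291). Rpl39l, a paralog known from the male germline, had 15, 13 and 11 reads in KO with rosiglitazone and 8, 94 and 46 in WT with rosiglitazone (edgeR, -1.23 ± 0.77, adjusted p = 0.302), with overlapping groups. Rpl10l, also known from the germline, had 0 to 2 reads per library, against 323 to 743 for Rpl10. Rpl7l1 measured 39.3, 38.0 and 38.4 CPM in KO with rosiglitazone and 36.6, 37.9 and 36.3 CPM in WT with rosiglitazone (edgeR, 0.063 ± 0.16, adjusted p = 0.822). Its relative Rpl7 measured 265, 199 and 194 CPM in KO with rosiglitazone and 149, 131 and 144 CPM in WT with rosiglitazone (edgeR, 0.64 ± 0.19, adjusted p = 0.0477). Rpl36al measured 8.54, 7.91 and 8.09 CPM in KO and 7.92, 8.52 and 8.50 CPM in WT (edgeR, -0.023 ± 0.16, adjusted p = 0.941), within the spread. In edgeR its parent Rpl36a stood at 0.74 ± 0.36, adjusted p = 0.195, and Rpl22 and its paralog Rpl22l1 at 0.37 ± 0.15, adjusted p = 0.121 and 0.57 ± 0.24, adjusted p = 0.133.

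The Rps27 family shows how far reads can be assigned to one copy. Rps27 (chromosome 3, 90212522 to 90213651, minus strand, GRCm38) has 4 coding exons, Rps27rt (chromosome 9, 114982366 to 114982739, minus strand) is an intronless copy with 1, and Rps27l (chromosome 9, 66946086 to 66949516, plus strand) has 4. The coding sequences of Rps27 and Rps27rt, both of 255 bases, are the same at every base, while that of Rps27l differs from them at 61 bases (76.1% identity, compared base by base). They are printed from the GENCODE M21 transcripts, with capitals for the bases of Rps27l that differ from Rps27.
Rps27 and Rps27rt: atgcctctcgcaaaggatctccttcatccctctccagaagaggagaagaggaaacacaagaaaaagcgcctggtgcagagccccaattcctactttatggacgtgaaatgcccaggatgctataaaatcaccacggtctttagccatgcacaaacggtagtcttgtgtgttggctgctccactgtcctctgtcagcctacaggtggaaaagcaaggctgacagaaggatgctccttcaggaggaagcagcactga
Rps27l: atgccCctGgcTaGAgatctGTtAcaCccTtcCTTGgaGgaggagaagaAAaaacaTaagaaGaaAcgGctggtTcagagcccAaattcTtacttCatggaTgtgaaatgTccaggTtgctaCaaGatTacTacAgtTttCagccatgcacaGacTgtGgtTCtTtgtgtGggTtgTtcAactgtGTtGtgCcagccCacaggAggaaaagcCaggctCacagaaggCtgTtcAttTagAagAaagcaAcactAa
Rps27 had 76, 50 and 855 reads in KO with rosiglitazone, 67 and 396 in KO on diet, 171, 167 and 42 in WT with rosiglitazone and 47, 152 and 96 in WT on diet. Rps27rt had 1590, 1019 and 546 reads in KO with rosiglitazone, 818 and 1599 in KO on diet, 1008, 805 and 789 in WT with rosiglitazone and 730, 1313 and 1218 in WT on diet. Rps27 took 61.0% of the reads of both in KO with rosiglitazone replicate 3 and 4.59% to 19.8% in the other 10 libraries, and without that library the log2 fold change of Rps27 was -0.13, against 2.14 with it. Summed, a step chosen after seeing the data, the pair measured 104, 80.5 and 87.2 CPM in KO with rosiglitazone and 41.9, 30.2 and 52.7 CPM in WT with rosiglitazone. The groups then did not overlap, and the log2 fold change was 1.12 ± 0.33 (edgeR, adjusted p = 0.0479), with 42 members called higher in that fit, where 5.48% of all genes were. Rps27l, known in human cells as a target of p53, was 1 of 3 members with a negative estimate, at 12.4, 14.8 and 11.9 CPM in KO and 16.8, 22.3 and 20.9 CPM in WT (edgeR, -0.62 ± 0.39, adjusted p = 0.309). Its groups did not overlap, and edgeR called it lower where only these groups entered the fit (-0.60, adjusted p = 0.0159), as it did 20.4% of all genes.

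**Figure D4:**
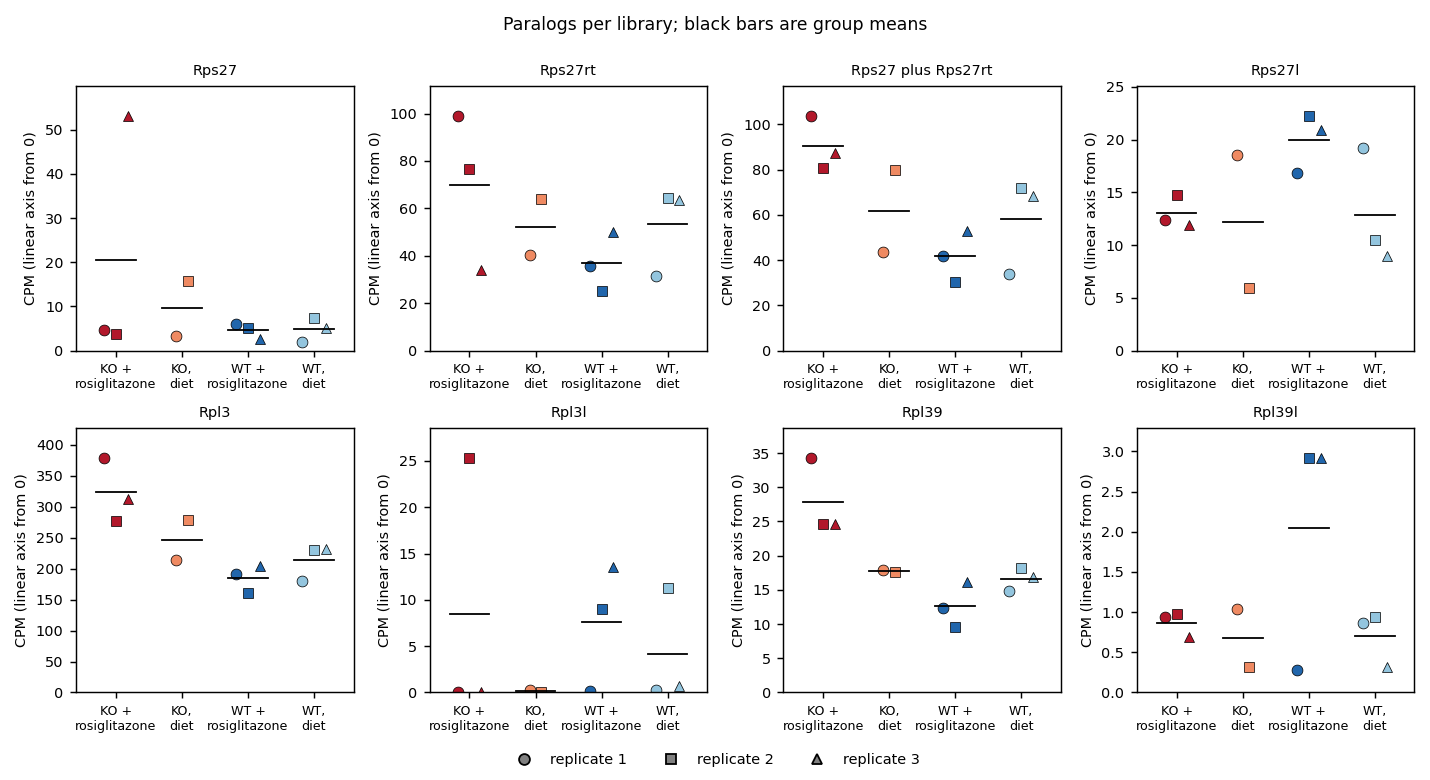
CPM per library (points, shaped by replicate; bars are group means; axes start at 0) for Rps27, its copy Rps27rt, their sum and Rps27l, and for Rpl3, Rpl3l, Rpl39 and Rpl39l. The 3 KO libraries with rosiglitazone sit at 80.5 to 104 CPM in the sum of Rps27 and Rps27rt, above the WT libraries with rosiglitazone at 30.2 to 52.7 CPM, while Rpl3l is high in 4 libraries of 3 groups.

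Processed pseudogenes, reverse-transcribed copies of mRNA in the genome, took many of the reads that ribosomal protein mRNA could give. Of the members, 59 have pseudogenes named after them, and for 15 of these the pseudogenes were assigned over 50% of the reads of the member and its pseudogenes. In these 15 the copy with most reads was 98.4% to 100% identical to the member's coding sequence, with a median of 100%. The share was 92.0% for Rps23, 90.7% for Rpl10, 88.0% for Rps12, 77.3% for Rps6 and 64.1% for Rps26. Rps6 had 12827 reads over all libraries and its copy Rps6-ps4, identical over the coding sequence, 43628. Whether these reads came from the member or from the copy was not tested. Copies with other symbols, such as predicted Gm symbols, were neither counted in these shares nor added to a member. A low share thus does not show that a member lost few reads to copies. With the pseudogenes' reads added to their parents, 40 members were called higher in KO than WT with rosiglitazone, 36 of them among the 41, where 5.45% of all genes were. Rps26 was then 0.89 ± 0.19 (edgeR, adjusted p = 0.0134) and Rpl10a 0.98 ± 0.21 (adjusted p = 0.0147). In the same edgeR fit Rps6 was 0.68 ± 0.28 (adjusted p = 0.128), Rpl10 0.52 (adjusted p = 0.0830, against 0.0320 alone) and Rps23 0.89 (adjusted p = 0.0184, against 0.0717 alone).

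**Figure D5:**
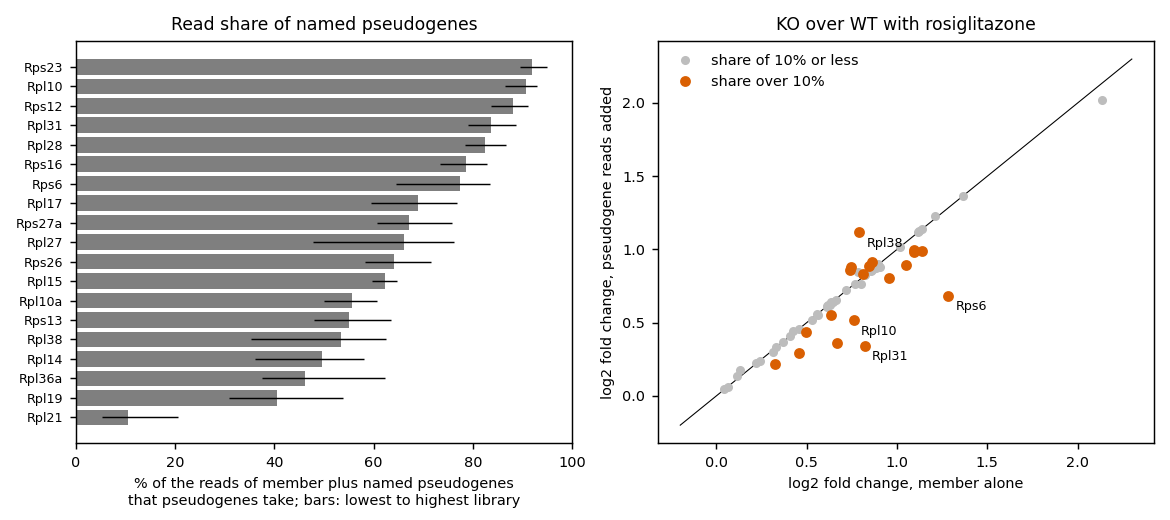
Left, the percentage of reads of a member and its named pseudogenes that the pseudogenes were assigned, over all libraries (bars, with black lines from the lowest to the highest library), for members over 10%. Right, log2 fold change of KO over WT with rosiglitazone with pseudogene reads added against the member alone, with the line of equality; Rps6 moves most among the labelled genes, to 0.68, against 1.28 alone.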

How the data were processed

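Total RNA of inguinal white adipose tissue was sequenced in 11 libraries. The deposited files give estimated counts (expected counts) and TPM for 132288 transcripts, made by the authors with Salmon against mm10 (GRCm38), per the file headers and the submitters' processing notes, which also name edgeR. The sources used here give neither a tool version nor the transcript annotation. Of the transcripts 131892 were matched to GENCODE M21, and their estimated counts were added up within each gene, then rounded. edgeR 4.0.16 (R 4.3.3) fitted a single quasi-likelihood model with TMM scaling to all 11 libraries and 26960 genes passing filterByExpr, with Benjamini-Hochberg adjustment over all of them for each of 5 comparisons and a threshold of 0.05. Values after ± are SE. CPM are TMM-scaled. Counts of 13021072 to 40885654 reads per library limit the precision for members with few reads. Reads of near-identical copies were divided by Salmon, so single paralogs and pseudogenes are uncertain.

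Members and lists were chosen with earlier results of these data known. The text names fixed paralogs, stalk proteins and disease or signalling members, up to 6 called members by p in each direction, the 5 highest and 5 lowest estimates per comparison among members averaging 1 or more in log2 CPM, the 5 highest and lowest by TPM level, and up to 4 called genes per list or the 2 with the smallest p; where another gene is named, the text says so or it belongs to a count of 5 or fewer. The level ranking used coding TPM in place of TPM as deposited. Alternatives were RLE and upper-quartile scaling, DESeq2 1.42.0, limma-voom and limma-trend on log2(TPM + 1) (limma 3.58.1), other filters, length offsets, feature sets and covariates, groups by title, a replicate block and each library left out, with limma-trend on log2(coding TPM + 1) and summing of Rps27 with Rps27rt added after seeing the data. Limma-voom was run with a quality weight for each library. Values of some members and listed genes are not reported singly here, though they stay in the counts, medians and sums. The fitting was tested on counts simulated from its own model, a test that cannot bear on cell mixture or on the treatment labels. The replicate libraries of each group differed by more than sampling noise.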

Additional observations from a re-analysis of the deposited data

How the results depend on the processing

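Between KO and WT with rosiglitazone, edgeR called 41 members with TMM scaling (15.0% of all genes, all shares here being over both directions). It called 18 with a replicate block (12.8% of all genes), 2 with WT grouped by titles (2.31%), 25 with the B-cell covariate (14.0%) and 1 with the mature adipocyte covariate (7.30%), and limma-trend on log2(TPM + 1) called 0 (15.1%). Leaving out each library in turn gave 2 to 49, with 5.60% of all genes in the fit with 2 and 18.7% and 18.9% in the 2 fits with 49. The other 12 alternatives gave 32 to 57, with 8.13% to 35.8% of all genes. For rosiglitazone in WT, with 0 called, the B-cell covariate gave 1 (Rpl36; 7.70% of all genes), the mature adipocyte covariate 3 (Rps15, Rplp2 and Rps19; 6.69%), DESeq2 1 (8.70%) and limma-voom 7 (27.4%), and leaving out libraries 0 to 1 (10.4% where 1). Each is a smaller share of the 83 members than of all genes. For rosiglitazone in KO, with 0 called, these covariates gave 1 (Rpl36; 1.04%) and 7 (3.52%) and DESeq2 4 (1.43%). Between KO and WT on diet, with 0 called, grouping by titles gave 2 lower (Rpl36 and Rpl36al; 10.7%), the mature adipocyte covariate 3 (Rps27l higher, Rpl5 and Rps13 lower; 12.9%) and DESeq2 1 (2.96%), again under the share of all genes. For the interaction, with 0 called, grouping by titles gave 1 (Rpl36; 0.571%) and DESeq2 4 (2.17%). Named members past the threshold that changed sign between KO and WT with rosiglitazone were Rpl12 (-0.52), Rpl5 (-0.57) and Rps7 (-0.035) with the mature adipocyte covariate and Rpl35 (-0.0056) on log2(TPM + 1), where the median of all genes was -0.30. The causes were not tested. The replicate numbers did not pair the libraries: 15 same-numbered pairs had correlations of -0.49 to 0.67, 6 of them over 0.1, and 6 of 11 libraries correlated best with their own number, so the block rests on a shared number only. It called 0 members in the other 4 comparisons. Leaving out 1 KO library on diet left a single library there, assumed to vary like the other groups. Genes named beside counts were chosen after their values were seen. Members with few reads, such as Rpl3l, Rpl39l and Rpl10l, carry wide errors at this depth.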
